A study of Arabidopsis thaliana with 8 samples.

Results

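The UDP-glycosyltransferases of the UGT family, leaving out the flavonoid enzymes UGT78D1, UGT78D2 and UGT78D3, were followed across dark-grown Arabidopsis seedlings treated with lincomycin and red light. A member was a gene whose symbol begins with UGT and whose probe set lists exactly 1 gene in the array annotation. This gave 44 genes on 44 probe sets, 1 probe set each, among 22746 probe sets tested and 13513 with exactly 1 listed gene. The rule uses names and annotation, and for a gene with several probe sets the highest mean signal, a step that no member needed. The RefSeq gene table (TAIR10.1) lists 58 genes with a UGT symbol and holds all 44 members by locus identifier. By the number and letter after UGT the members fall into 20 subfamilies, of which 8 have 3 or more measured genes and hold 30 of the 44, 2 have 2 genes and 10 have 1.

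UGT enzymes move a sugar, mostly glucose, from a UDP-sugar onto small molecules such as hormones, phenylpropanoids, sterols, defence compounds and xenobiotics. The sugar usually makes the acceptor more soluble and less active, and the conjugate can be stored in the vacuole or split again by a beta-glucosidase. In seedlings, glucose conjugation is one of the routes that lower free auxin, cytokinin, abscisic acid and salicylate, and it also prepares sinapate and monolignols for storage and transport.

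Total RNA had been taken from whole wild type Col-0 seedlings, 4 days old, grown in darkness on Murashige Skoog medium with sucrose, and hybridised to 8 Affymetrix arrays. The dark group had neither lincomycin nor light, the red group had 30 min of red light without lincomycin, the dark lincomycin group had lincomycin without light, and the red lincomycin group had both, with 2 arrays in each group. Lincomycin blocks protein synthesis in plastids, and its dose is 220 µg/ml in one label and 200 µg/ml in another. The 2 by 2 layout allows red light to be compared with darkness on each medium, lincomycin with its absence under each light condition, and the difference between these effects, the interaction, to be tested. The labels do not say whether replicates were separate cultures, so p-values here reflect only how far these arrays differ, which may be technical, and 2 arrays a group limit precision throughout.

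The values are log2 of deposited RMA intensities, and every change is a difference of group means of 2 arrays on that scale with its standard error (SE) from limma. A gene was called where its p, adjusted by Benjamini-Hochberg across the 22746 probe sets tested, was under 0.05. Signals of different probe sets are not comparable as transcript levels, so each gene was compared only with itself. Median intensity per array was 32.0 to 36.1. Replicates were farther apart without lincomycin: the standard deviation of replicate differences over all probe sets was 0.538 (dark) and 0.442 (red), against 0.211 and 0.224 in the dark lincomycin and red lincomycin groups. The main fit pools the spread of each probe set over all groups. Its SEs therefore tend to be too wide between the lincomycin groups and too narrow between the groups without lincomycin. On dark replicate 1 the actin control was 41.2-fold brighter at its 3′ end than at its 5′ end, while the ratio was between 2.24 and 3.67 on the remaining arrays. The main counts over the family and its subfamilies are given with and without it. Without dark replicate 1, the fitted change had the opposite sign for 10 of 44 members for lincomycin in darkness and for 9 with red light without lincomycin. All 8 listed photosynthetic markers of shoot tissue and 2 of 12 listed root markers had a named probe set, and no listed vascular marker had one. These counts reflect the array annotation and cannot check the tissue label.

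Of the 44 genes, 1 was called in any of the 4 single comparisons or in the interaction: UGT85A4 rose on lincomycin in darkness. No member was called with red light on either medium. A gene that was not called is not shown to be unchanged. No fitted change of any member in the 4 single comparisons exceeded 2-fold in either direction, while the 95% intervals of some genes did. In whole seedlings, fewer cells of a type and less RNA per cell cannot be told apart.

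UGT85A4 (AT1G78270), which is in none of the lists of enzymes by role, had log2 intensities of 4.74 and 5.00 on the dark arrays and 4.83 and 4.94 on the red arrays. It reached 5.71 and 5.96 on the dark lincomycin arrays and 5.21 and 5.09 on the red lincomycin arrays. All 4 arrays from lincomycin plates were above all 4 arrays without it, and the dark lincomycin arrays stood above every other array. On lincomycin in darkness its change was 0.96 ± 0.16 (SE, n = 2 and 2), or 1.95-fold, with a 95% interval of 0.59 to 1.34 and a limma adjusted p of 0.0484. After red light the change with lincomycin was 0.27 ± 0.16, which did not pass (limma adjusted p = 0.709). Its change with red light on lincomycin was -0.68 ± 0.16 (limma adjusted p = 0.637). Its change with red light without lincomycin was 0.01 ± 0.16 (limma adjusted p = 0.984). The interaction was -0.69 ± 0.22 with a limma adjusted p of 0.388, so the effects of lincomycin in darkness and after red light were not shown to differ. The call for UGT85A4 lay close to the threshold. It ended when any 1 of 5 arrays was left out, at limma adjusted p 0.0698 without dark replicate 1, 0.327 and 0.375 without dark lincomycin replicates 1 and 2, and 0.132 without either red lincomycin array, and it ended under 5 other settings with adjusted p from 0.0561 to 0.161.

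**Figure D1:**
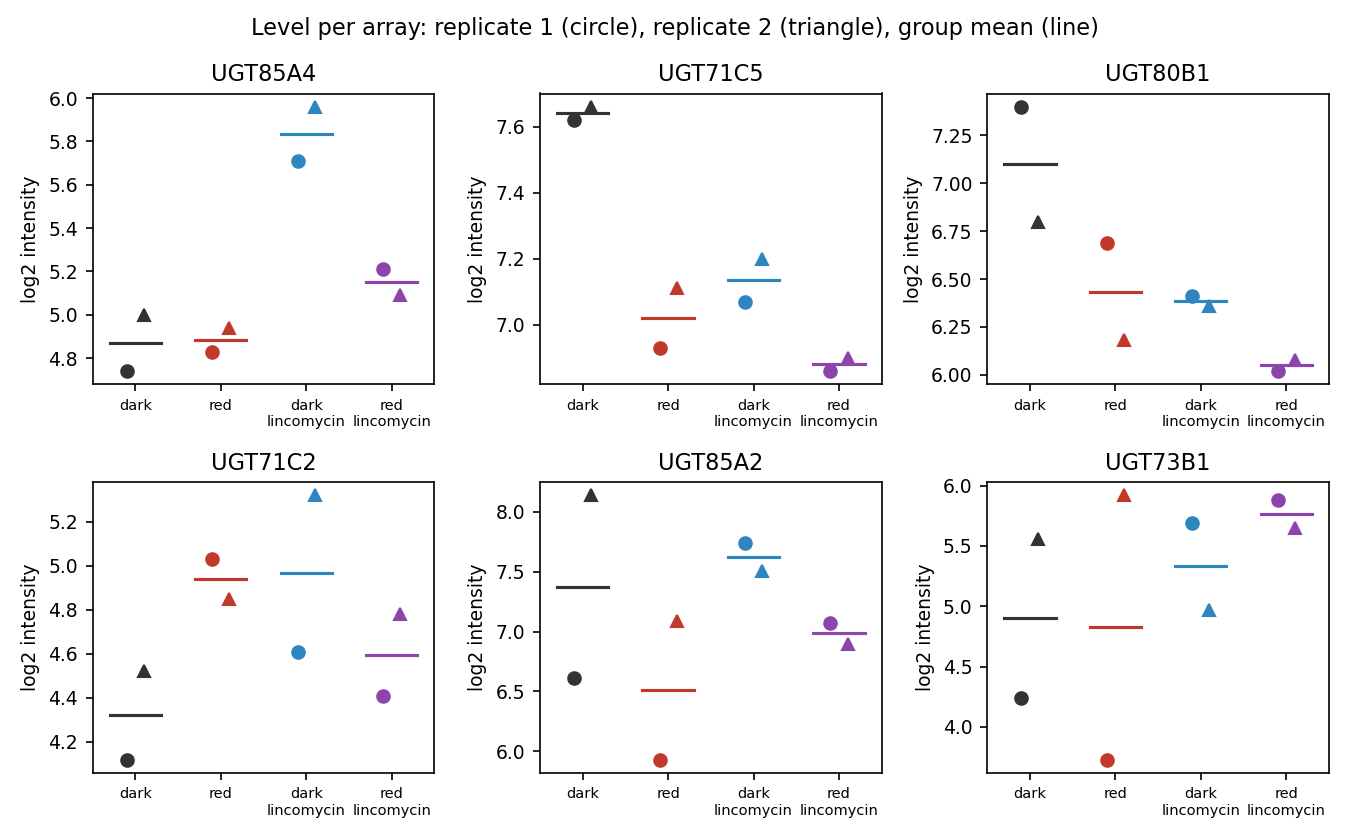
Log2 intensity of 6 UGT genes on each of the 8 arrays, by group; circles are replicate 1, triangles replicate 2 and lines the mean of the 2 arrays, and each panel has its own vertical scale. UGT85A4 sits at 5.71 and 5.96 in the dark lincomycin group and at 4.74 to 5.21 elsewhere, UGT71C5 is highest in the dark group, and UGT73B1 and UGT85A2 differ more between replicates without lincomycin than between group means.

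The other 4 measured UGT85A genes, UGT85A7, UGT85A2, UGT85A5 and UGT85A3, lie beside each other on chromosome 1, apart from UGT85A4. None of the 4 was called on lincomycin in darkness, with changes of 0.42, 0.25, 0.09 and 0.05 in that order. UGT85A7 had the lowest p of the 4, with log2 intensities of 4.16 and 3.84 in the dark group and 4.48 and 4.35 in the dark lincomycin group (0.42 ± 0.16, limma adjusted p = 0.238). Its arrays did not overlap between those groups, and the change ran from 0.26 without dark replicate 2 to 0.58 without dark replicate 1. For UGT85A2 it was -0.52 without dark replicate 1 and 1.02 without dark replicate 2. UGT85A2 had the widest range of group means in the family, 1.11, and also a wide replicate spread: 6.61 and 8.14 on the dark arrays, 5.93 and 7.09 on the red arrays, 7.74 and 7.51 on the dark lincomycin arrays and 7.07 and 6.90 on the red lincomycin arrays. Its change with red light on lincomycin was -0.64 ± 0.53, which did not pass, and those arrays did not overlap. This change ran from -0.76 to -0.52 with 1 of those arrays left out. Fitted on those 4 arrays alone, its SE was 0.13 (limma adjusted p = 0.0978). Its change with red light without lincomycin was -0.86 ± 0.53 (limma adjusted p = 0.518). It was -1.63 without dark replicate 1, -0.10 without dark replicate 2, -0.29 without red replicate 1 and -1.44 without red replicate 2, and none of these passed. Without replicates 1 of the dark and red groups, an alternative added after the data were seen, it was -1.05 with a limma adjusted p of 0.0324, with 1 array left in each of those groups and their spread taken from the lincomycin groups.

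Lincomycin in darkness was the comparison in which most UGT changes lay above 0. There were 35 of 44 members above 0 (79.5%), against 48.1% of all probe sets, and the median change was 0.13, against -0.01 for all. Leaving out dark replicate 1 gave 28 members above 0 (63.6%), against 52.3% of all probe sets. The 1 called member (2.27%) stands beside a background of 0.98% of all probe sets called in this comparison. At an unadjusted p under 0.05 there were 9 members (20.5%), 7 higher and 2 lower, against 18.1% of all probe sets, which is near the background. Both dark lincomycin arrays stood above both dark arrays for 15 members (34.1%), against a background of 23.1%. Both stood below for 5 members (11.4%), against 25.6%. The 95% interval of the change stayed within 2-fold for 30 members (68.2%), against 75.9% of all probe sets. Members share arrays and some lie in gene clusters, so these shares are descriptions and carry no test.

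**Figure D2:**
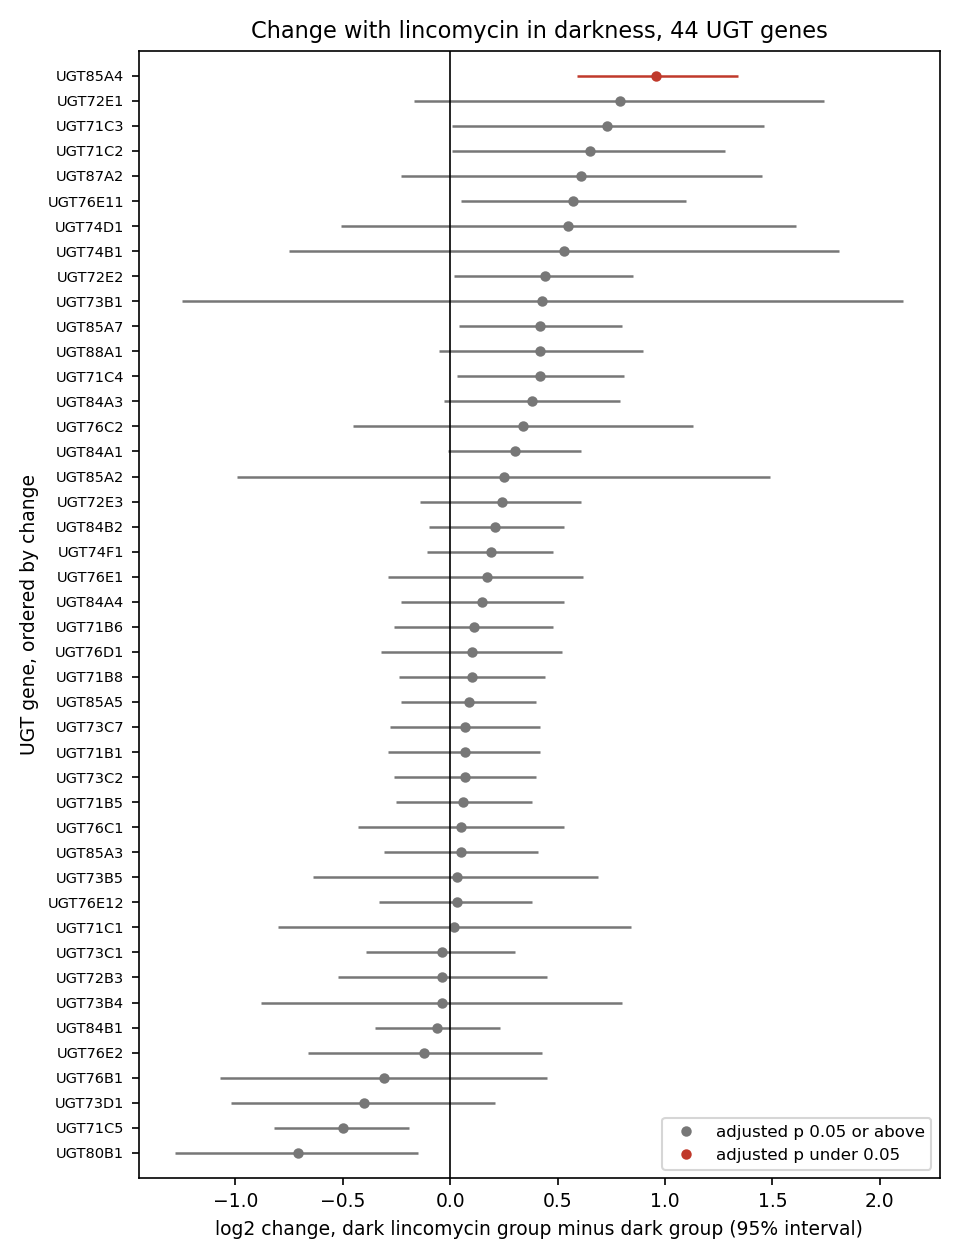
Log2 change between the dark lincomycin group and the dark group for each of the 44 UGT genes, ordered by size; points are fitted changes from 2 arrays per group and bars 95% intervals. UGT85A4, in red, was the 1 gene with an adjusted p under 0.05, and 35 of 44 points lie above 0, most with intervals that include 0.

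The abscisic acid enzymes were UGT71C5, UGT71B6 and UGT71B8, 3 of 5 listed. UGT71C5, which makes abscisic acid glucose ester, had log2 intensities of 7.62 and 7.66 on the dark arrays, 6.93 and 7.11 on the red arrays, 7.07 and 7.20 on the dark lincomycin arrays and 6.86 and 6.90 on the red lincomycin arrays. Both dark arrays were above the other 6. Its change on lincomycin in darkness was -0.50 ± 0.14, with an unadjusted limma p of 0.00704 and an adjusted p of 0.116. Its change with red light without lincomycin was -0.62 ± 0.14, the lowest p in the family in that comparison, at a limma adjusted p of 0.135. Both comparisons use the same dark arrays, so the values are not independent. On lincomycin its change with red light was -0.25, and after red light its change with lincomycin was -0.14, and neither passed. UGT71B6 and UGT71B8, which also act on abscisic acid, had changes between -0.18 and 0.19 in the 4 single comparisons and none passed.

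UGT71C5 has UGT71C4 and UGT71C3 as its neighbours on chromosome 1, and their fitted changes lay on both sides of 0. On lincomycin in darkness the changes were -0.50 for UGT71C5, 0.42 for UGT71C4 and 0.73 for UGT71C3, a spread of 1.24. UGT71C4 had 6.65 and 6.98 on the dark arrays, 7.08 and 7.34 on the red arrays, 7.22 and 7.25 on the dark lincomycin arrays and 7.13 and 7.25 on the red lincomycin arrays. Its dark arrays were below the other 6, the reverse of UGT71C5, with a change on lincomycin in darkness of 0.42 ± 0.17 (limma adjusted p = 0.249) and with red light without lincomycin of 0.39 ± 0.17 (limma adjusted p = 0.352). Without dark replicate 1 these were 0.26 and 0.23, and the change of UGT71C3 on lincomycin in darkness was 0.42. The difference between neighbours was not tested.

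Among the members, sterol glucosylation is represented by UGT80B1 alone, 1 of 2 listed genes, known from the seed coat phenotype of its mutant. UGT80A2, the other listed gene, was measured under the symbol SGT, outside the rule. Its changes were 0.17 with red light without lincomycin and 0.32 for lincomycin in darkness. With red light on lincomycin and for lincomycin after red light they were -0.26 and -0.11, and none passed. UGT80B1 had 7.40 and 6.80 on the dark arrays, 6.69 and 6.18 on the red arrays, 6.41 and 6.36 on the dark lincomycin arrays and 6.02 and 6.08 on the red lincomycin arrays. The arrays with light lay below those without on each medium, and those with lincomycin below those without under each light condition, with no overlap in any of the 4 comparisons. The changes were -0.67 with red light without lincomycin, -0.33 with red light on it, -0.71 for lincomycin in darkness and -0.38 for lincomycin after red light. None passed, with the lowest limma adjusted p at 0.183, for lincomycin in darkness. With red light without lincomycin the change was -0.36 without dark replicate 1 and -0.97 without dark replicate 2, and -0.92 and -0.41 without red replicates 1 and 2. For lincomycin after red light it was -0.13 without red replicate 1 and -0.63 without red replicate 2. For lincomycin in darkness the change was -0.41 without dark replicate 1 (limma adjusted p = 0.361). Without dark replicate 2, where dark replicate 1 alone stands for its group, it was -1.02 (limma adjusted p = 0.0416).

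The enzymes of sinapate and monolignol conjugation had the most members of any role, 6 of 8 listed: UGT84A1, UGT84A3 and UGT84A4, which form glucose esters of sinapate and related acids, and UGT72E1, UGT72E2 and UGT72E3, which glucosylate monolignols and related aldehydes. On lincomycin in darkness all 6 changes were above 0, from 0.15 to 0.79 with a median of 0.34, and none passed. With red light without lincomycin all 6 were above 0, from 0.06 to 0.52 with a median of 0.20, and none passed. Both comparisons use the same dark arrays, so these 2 counts are not independent. Without dark replicate 1, 4 of 6 were above 0 with red light without lincomycin, from -0.19 for UGT72E1 and -0.09 for UGT72E2 to 0.41 for UGT84A1, while all 6 stayed above 0 for lincomycin in darkness, from 0.08 to 0.49. Without dark replicate 2 the latter count was 5 of 6. On lincomycin 3 of 6 were above 0 with red light, with a median of -0.13. The dark group was the lowest of the 4 group means for UGT84A1, with arrays at 4.02 and 3.86 on the dark arrays, 4.26 and 4.28 on the red arrays, 4.23 and 4.25 on the dark lincomycin arrays and 4.28 and 4.37 on the red lincomycin arrays. Its replicates lay close together, and its change with red light without lincomycin was 0.33 ± 0.13 (limma adjusted p = 0.32). UGT72E2 had 5.65 and 5.97 on the dark arrays, 5.82 and 5.92 on the red arrays, 6.07 and 6.42 on the dark lincomycin arrays and 5.85 and 5.88 on the red lincomycin arrays. Its dark lincomycin arrays were the highest, with a change on lincomycin in darkness of 0.44 ± 0.18 (limma adjusted p = 0.255), or 0.28 without dark replicate 1. UGT72E1 was lowest on dark replicate 1, at 5.43 against 6.36 to 7.05 on the other 7 arrays, with 6.84 on dark replicate 2, and its change on lincomycin in darkness was 0.79 ± 0.41 (limma adjusted p = 0.367). It was 0.08 without dark replicate 1 and 1.49 without dark replicate 2, where dark replicate 1 alone stands for its group.

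The auxin enzymes UGT84B1, UGT84B2 and UGT74D1, 3 of 5 listed, had no member that passed. UGT84B1 was the flattest of the 3, between 3.6 and 3.74 on all 8 arrays. UGT74D1 had 4.76 and 6.24 in the dark group, so that its replicates there were farther apart than any 2 of its group means, and 5.74 to 6.45 on the other 6 arrays. Its change on lincomycin in darkness was 0.55 ± 0.45 (limma adjusted p = 0.593). It was -0.18 without dark replicate 1 and 1.29 without dark replicate 2, where dark replicate 1 alone stands for its group. IAGLU, an indole-3-acetate glucosyltransferase outside the UGT symbols and hence no member, had a change of 1.23 ± 0.37 in the same comparison and did not pass either (limma adjusted p = 0.15).

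The cytokinin enzymes UGT76C1, UGT76C2 and UGT73C1, 3 of 5 listed, had no member that passed. All 3 had changes above 0 with lincomycin after red light, from 0.17 to 0.23, and the SEs of UGT76C1 and UGT76C2 in that comparison were 0.20 and 0.33. Without red replicate 1 the changes were 0.01 for UGT76C1 and -0.32 for UGT76C2, so 2 of 3 were above 0. UGT73C1, which also accepts xenobiotics, had the lowest p of its subfamily there, with 3.36 and 3.2 in the red group and 3.4 and 3.54 in the red lincomycin group (0.18 ± 0.15, limma adjusted p = 0.796). Those arrays did not overlap, and the difference of the means was close to the SE.

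Enzymes of salicylate and related immune molecules were UGT74F1, UGT76B1, UGT71C3 and UGT76D1, 4 of 6 listed, and none passed in any comparison. On lincomycin all 4 changes with red light were below 0, from -0.37 to -0.04, and 1 of 4 was above 0 without dark lincomycin replicate 1 and without red lincomycin replicate 2. UGT76B1, which glucosylates isoleucic acid and salicylate, had 7.45 and 8.23 on the dark arrays, 7.08 and 7.82 on the red arrays, 7.36 and 7.70 on the dark lincomycin arrays and 7.27 and 7.40 on the red lincomycin arrays. The groups overlapped in all 4 comparisons. UGT71C3, an enzyme of methyl salicylate, had 4.46 and 5.08 on the dark arrays, 4.46 and 5.19 on the red arrays, 5.27 and 5.74 on the dark lincomycin arrays and 5.08 and 5.19 on the red lincomycin arrays. Its dark lincomycin arrays were the highest, with a change in darkness of 0.73 ± 0.31 (limma adjusted p = 0.269).

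The stress and xenobiotic enzymes UGT73B1, UGT73B4, UGT73B5 and UGT71C1, 4 of 9 listed, had no member that passed. The 3 UGT73B genes all had low values on red replicate 1: UGT73B1 was at 3.73 there and 5.92 on red replicate 2, UGT73B4 at 4.36 and 5.38, and UGT73B5 at 3.82 and 4.57. With that array, the changes for lincomycin after red light were 0.94 ± 0.71, 0.68 ± 0.36 and 0.31 ± 0.28 for UGT73B1, UGT73B4 and UGT73B5. Without red replicate 1 they were -0.15, 0.17 and -0.07, so that UGT73B1 and UGT73B5 lay in the opposite direction. With red light without lincomycin, the changes of UGT73B1, UGT73B4 and UGT73B5 were -0.08, -0.56 and -0.36, and without red replicate 1 they were 1.02, -0.05 and 0.01. The dark group of UGT73B1 was also wide, at 4.24 and 5.56, while its arrays lay between 4.97 and 5.88 on lincomycin. UGT74B1, the glucosinolate enzyme and 1 of 2 listed, had the same kind of replicate spread, with 4.72 and 5.98 on the dark arrays, 4.8 and 6.37 on the red arrays, and 5.83 to 6.17 on lincomycin.

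No member was measured for the brassinosteroid list (0 of 2) or for the list of flavonoid enzymes outside UGT78D (0 of 7). UGT88A1, which had the highest mean signal of the 44 probe sets, had 7.67 and 7.88 on the dark arrays, 7.98 and 8.48 on the red arrays, 8.24 and 8.16 on the dark lincomycin arrays and 8.22 and 7.95 on the red lincomycin arrays. Its dark arrays were the lowest, with changes of 0.42 ± 0.20 for lincomycin in darkness (limma adjusted p = 0.33) and 0.46 ± 0.20 for red light without lincomycin (limma adjusted p = 0.373), the latter 0.20 without red replicate 2. UGT87A2, known for an effect on flowering time, had 5.8 and 6.35 on the dark arrays and 5.88 and 7.0 on the red arrays, against 6.61 to 7.0 on lincomycin. Its change on lincomycin in darkness was 0.61 ± 0.36 (limma adjusted p = 0.429), or 0.34 without dark replicate 1.

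Red light without lincomycin gave no called member, against a background of 0.189% of all probe sets. At an unadjusted limma p under 0.05 there were 3 members (6.82%), UGT84A1 higher and UGT71C5 and UGT80B1 lower, against 14.3% of all probe sets. The changes ran from -0.86 for UGT85A2 to 0.62 for UGT71C2, with a median of 0.07, and 32 of 44 (72.7%) lay above 0, against 49.5% of all. Without dark replicate 1, 25 (56.8%) lay above 0, against 53.3% of all. Without red replicate 1 as well, a setting added after the data were seen, 28 (63.6%) did, against 48.5%. Both red arrays stood above both dark arrays for 9 members (20.5%), against 16.9%, and below for 3 (6.82%), against 18.2%. The 95% interval stayed within 2-fold for 31 members (70.5%), against 78.4% of all probe sets.

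On lincomycin, red light gave no called member, against 0.0615% of all probe sets, and 1 member at an unadjusted limma p under 0.05 (2.27%), UGT85A4, against 3.85% of all. The median change was -0.05, with a range from -0.68 for UGT85A4 to 0.44 for UGT73B1, and 19 of 44 (43.2%) lay above 0, against 49.4% of all. Both arrays with light stood above both without for 10 members (22.7%), against 21.7%, and below for 11 (25.0%), against 22.9%, each near the background. The 95% interval stayed within 2-fold for 34 members (77.3%), against 87.8%. These p-values and intervals use the spread pooled over all groups, including the wider replicates without lincomycin.

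Lincomycin after red light gave no called member, against 0.0264% of all probe sets, and 0 members at an unadjusted limma p under 0.05, against 8.33%. The median change was 0.03, with a range from -0.39 for UGT71C1 to 0.94 for UGT73B1, and 23 of 44 (52.3%) lay above 0, against 48.2% of all. That count was 13 without red replicate 1 and 31 without red replicate 2. Both lincomycin arrays stood above both arrays without it for 6 members (13.6%), against 19.4%, and below for 7 (15.9%), against 20.5%. UGT72E3 had the lowest p, with 4.06 and 4.40 in the red group and 4.45 and 4.63 in the red lincomycin group (0.31 ± 0.16, limma adjusted p = 0.665), and its change was 0.14 without red replicate 1. The 95% interval stayed within 2-fold for 35 members (79.5%), against 82.0%.

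The interaction of light and lincomycin called no member and 0.0% of all probe sets. At an unadjusted limma p under 0.05 there were 2 members (4.55%), UGT85A4 and UGT71C2, both negative, against 10.4% of all probe sets. UGT71C2 had 4.12 and 4.52 on the dark arrays, 5.03 and 4.85 on the red arrays, 4.61 and 5.32 on the dark lincomycin arrays and 4.41 and 4.78 on the red lincomycin arrays. Its dark arrays were below the red arrays and below the dark lincomycin arrays, and the interaction was -0.99 ± 0.38 (limma adjusted p = 0.442). Across the 44 genes the interaction had a median of -0.13, and 16 (36.4%) lay above 0, against 49.3% of all. Without dark replicate 1, 20 (45.5%) lay above 0, against 46.1% of all. Without red replicate 1, 8 (18.2%) did, against 53.3%. Without both of these arrays, a setting added after the data were seen, 17 (38.6%) did, against 50.0%. Its 95% interval stayed within 2-fold for 24 members (54.5%), against 58.1%.

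**Figure D3:**
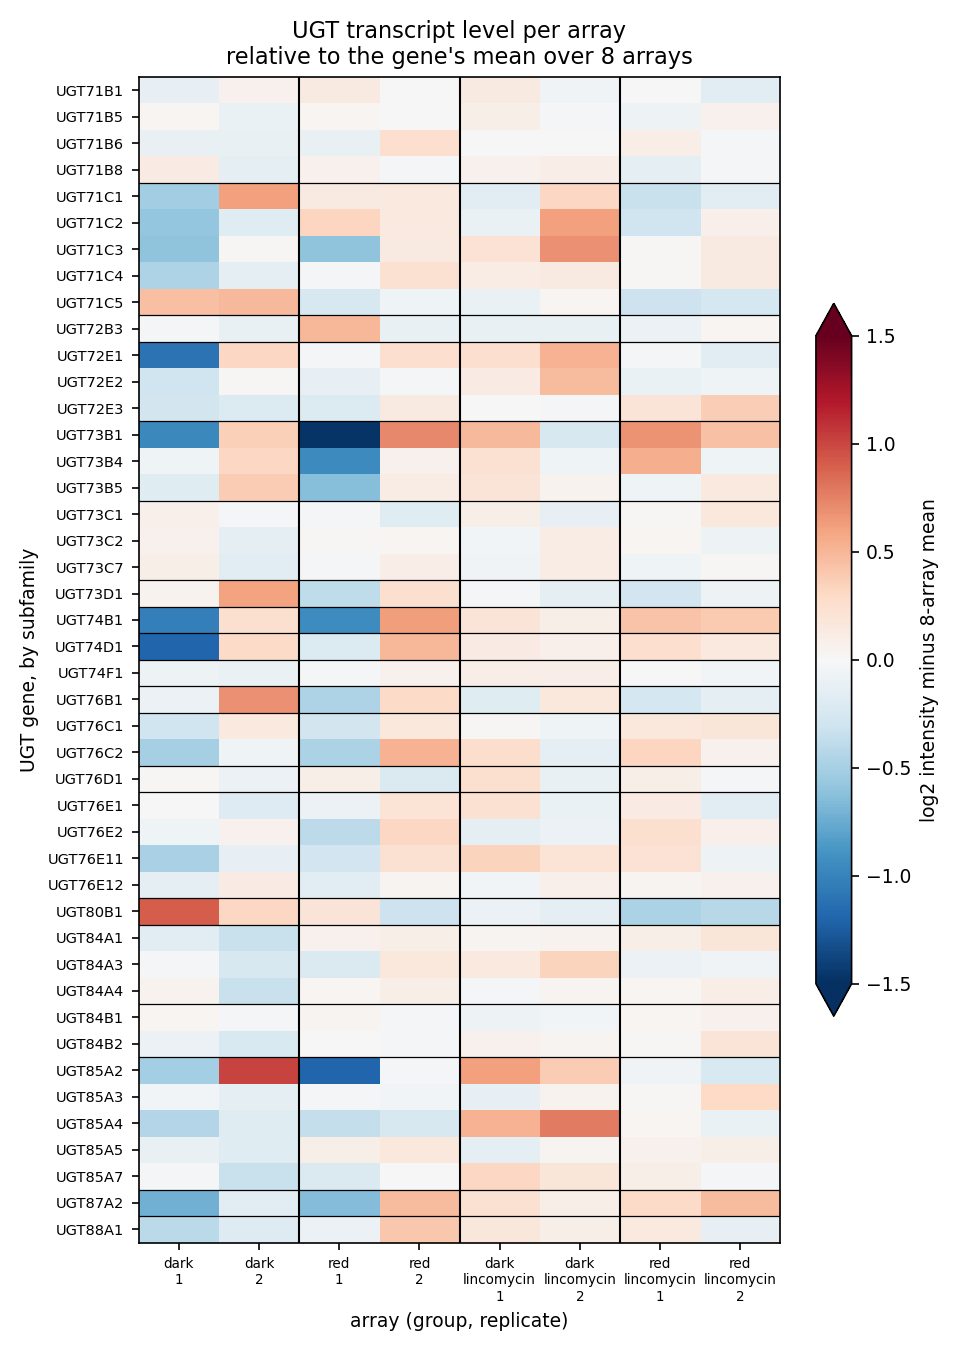
Log2 intensity of each of the 44 UGT genes on each of the 8 arrays minus the mean of that gene over the 8 arrays; rows are genes grouped by subfamily, columns are arrays by group and replicate, and colours beyond 1.5 are cut off. The lowest value fell on dark replicate 1 for 15 genes, dark replicate 2 for 13 and red replicate 1 for 9, and the 4 lincomycin columns are paler.

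The dark group had the lowest of the 4 group means for 27 of 44 members (61.4%), against 31.0% of all probe sets, and the highest for 4 (9.09%), against 34.2%. The highest mean lay in the dark lincomycin group for 17 members, in that with light as well for 16 and in the red group for 7. When single arrays were left out in turn, the dark group had the lowest mean for 20 to 29 members. It did so for 23 (52.3%) without dark replicate 1, against 37.2% of all, and for 20 (45.5%) without red replicate 2, against 27.5%. By array, 15 members (34.1%) had their lowest value on dark replicate 1, against 16.7% of all probe sets, and 13 (29.5%) on dark replicate 2, against 20.7%. The actin 3′ to 5′ ratio of 41.2 falls on the first of these arrays and 3.03 on the second. The same dark arrays enter lincomycin in darkness, red light without lincomycin and the interaction, so the shares above 0 in these are not independent. The part of RNA quality in the order of the groups was not tested.

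Replicates differed by more than 2-fold for 6 members in the dark group, UGT71C1, UGT72E1, UGT73B1, UGT74B1, UGT74D1 and UGT85A2, and for 5 in the red group, UGT73B1, UGT73B4, UGT74B1, UGT85A2 and UGT87A2. No member did so in either lincomycin group. Of all probe sets, 6.81% did without either treatment, 3.5% after red light alone, 0.176% on lincomycin alone and 0.0396% with both. Red replicate 2 was above red replicate 1 for 33 members (75.0%), against 46.2% of all probe sets.

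By subfamily, the medians on lincomycin in darkness were 0.44 for UGT72E (3 of 3 above 0), 0.42 for UGT71C (4 of 5), 0.30 for UGT84A (3 of 3) and 0.25 for UGT85A (5 of 5). They were 0.10 for UGT76E (3 of 4), 0.08 for UGT71B (4 of 4), 0.07 for UGT73C (2 of 3) and 0.03 for UGT73B (2 of 3). Without dark replicate 1 the medians were 0.20 for UGT72E (3 of 3), 0.26 for UGT71C (3 of 5), 0.38 for UGT84A (3 of 3) and 0.12 for UGT85A (4 of 5). They were then 0.08 for UGT76E (2 of 4), 0.12 for UGT71B (3 of 4), 0.17 for UGT73C (3 of 3) and -0.23 for UGT73B (0 of 3). UGT76E11 had the lowest p of UGT76E, at 3.63 and 4.00 in the dark group and 4.45 and 4.33 in the dark lincomycin group (0.57 ± 0.22, limma adjusted p = 0.24), and its arrays did not overlap. With red light without lincomycin, the median of UGT73B was -0.36 (0 of 3 above 0), and without red replicate 1 it was 0.01 (2 of 3). Without dark replicate 1 the medians of UGT71C and UGT72E in that comparison went from 0.09 and 0.21 to -0.25 (2 of 5) and -0.09 (1 of 3). With red light on lincomycin UGT71C had a median of -0.32 (0 of 5), which was -0.08 (0 of 5) without dark lincomycin replicate 2 and -0.23 (1 of 5) without red lincomycin replicate 1. For lincomycin after red light UGT73B had a median of 0.68 (3 of 3), which was -0.07 (1 of 3) without red replicate 1, and UGT71B one of -0.08 (0 of 4), or -0.09 (1 of 4) without red replicate 2. UGT71B8 had the lowest p of UGT71B, with red light on lincomycin (-0.18 ± 0.15, limma adjusted p = 1.0). Differences between subfamilies were not tested, and within a subfamily the spread was wide: in UGT71C the changes on lincomycin in darkness ran from -0.50 to 0.73, and in UGT85A from 0.05 to 0.96.

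**Figure D4:**
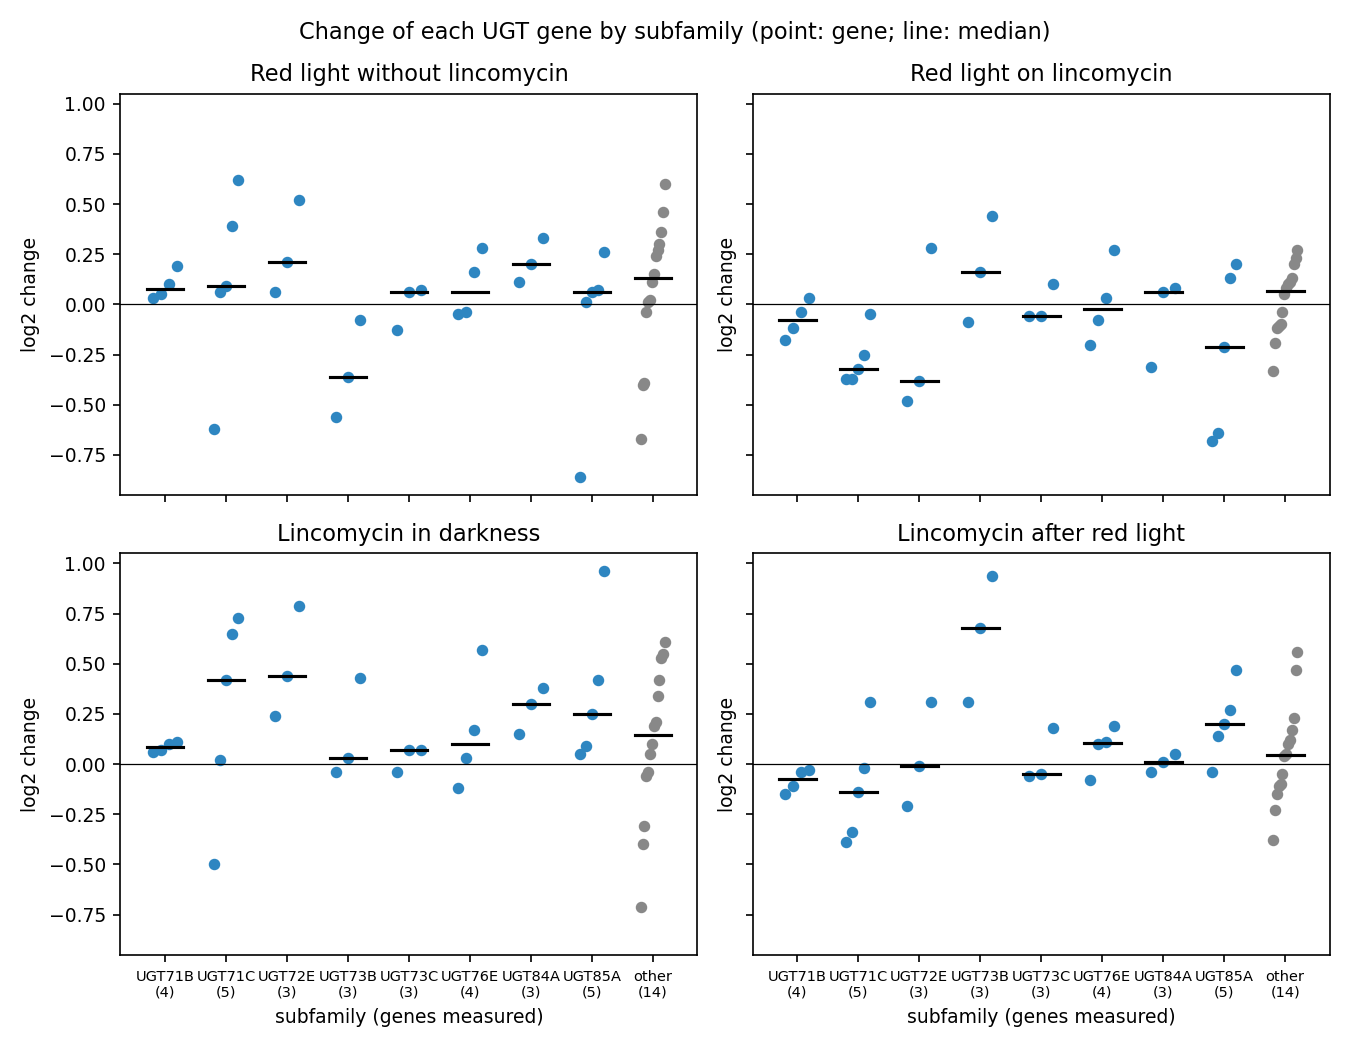
Log2 change of each UGT gene (points) in 4 comparisons, by subfamily, with the subfamily median (black line) and the number of genes measured in brackets; the 14 genes of smaller subfamilies are pooled in grey. On lincomycin in darkness all genes of UGT71B, UGT72E, UGT84A and UGT85A lie above 0, which without dark replicate 1 held for UGT72E and UGT84A but not for UGT71B (3 of 4) or UGT85A (4 of 5), and for lincomycin after red light the medians of most subfamilies lie near 0 except UGT73B at 0.68, or -0.07 without red replicate 1.

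Dim signals limit what can be seen. The median of the mean log2 intensity over all probe sets was 5.08, and 26 of 44 members lay at or below it. On lincomycin in darkness the median size of the change was 0.11 for these 26 genes, with a median SE of 0.15, and 0.43 for the 18 brighter genes, with a median SE of 0.33. At the dim end of an array real changes are compressed, so a small change there is not evidence of a steady level.

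Clusters of adjacent UGT genes were measured in 10 runs that hold 24 of the members. The largest run, UGT85A7, UGT85A2, UGT85A5 and UGT85A3, spread over 1.12 with red light without lincomycin. The pair UGT73B5 and UGT73B4 lay within 0.07 of each other on lincomycin in darkness, at 0.03 and -0.04. Near-identical neighbours can share probes, which was not tested here.

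Beta-glucosidases, which can release the sugar again, had 20 measured genes and none was called. On lincomycin in darkness 4 of 20 lay above 0, against 48.1% of all probe sets, with a median of -0.14. Many of the 20 were dim, with a mean log2 near or below 3.51, the level used as a floor, so the signs of their changes carry little. BGLU40 had the lowest p, with changes of -1.04 ± 0.20 (limma adjusted p = 0.061) for lincomycin in darkness and -1.03 ± 0.20 (limma adjusted p = 0.105) for red light without it. Of 11 measured tau glutathione S-transferases, detoxification enzymes, none was called, and the median on lincomycin in darkness was -0.22. Of 42 listed genes of other hormone conjugation and inactivation 5 were measured and none was called. UDP-sugar supply had 1 measured gene of 33 listed, USP, with a change of 0.02 ± 0.59 for lincomycin in darkness.

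Markers of tissue are set beside the UGT values. The 2 measured root hair genes had median changes of 0.81 for lincomycin in darkness and 0.88 for red light without lincomycin, and none was called. EXPA7 had 4.40 and 4.80 on the dark arrays, 5.91 and 5.56 on the red arrays, 5.38 and 5.88 on the dark lincomycin arrays and 5.37 and 5.01 on the red lincomycin arrays. Its 2 dark arrays were the lowest. Of the 8 photosynthetic markers 3 were called with lincomycin in darkness, PSAE-1, PRK and PSAN, all lower. In that comparison 1 of the 8 lay above 0, and the median of the 8 was -0.57. For lincomycin after red light 0 of the 8 lay above 0, with a median of -0.85, and none was called. The part of tissue composition in the UGT values was not tested.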

How the data were processed

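Each probe set has 1 deposited intensity per array, on a linear scale, which the authors made with RMA per the submitters' processing notes. That method corrects the background, makes the distributions of arrays alike and summarises probes; its version and joint use on the 8 arrays are not given in the sources used here. Of 22810 probe sets, 64 controls were left out. The annotation lists exactly 1 gene for 13513 probe sets, several for 503 and none for 8730, so UGT genes of the last 2 kinds are not members.

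Log2 values of 22746 probe sets were fitted with limma 3.58.1 (lmFit and eBayes) in R 4.3.3, all 8 arrays, 4 group means, no block, 4 residual and 3.19 prior degrees of freedom, two-sided, with Benjamini-Hochberg adjustment over all of them and no filter on intensity. Groups came from the labels. Python 3.11.15 served for tables and figures, with pandas 2.3.3, numpy 2.4.6 and matplotlib 3.10.9. The procedure was tested on simulated data.

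The members, role lists and marker lists were chosen with earlier results of these data known. Named genes were every called member, the 4 with the lowest p in each comparison, the 5 with the highest mean and the 5 with the widest group means, the lowest p of each subfamily of 3 or more, and measured members of the role lists. UGT85A5 and UGT85A3, the BGLU, GSTU and marker genes beyond each list's lowest p, and the 6 plotted genes were chosen after their values were seen.

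Alternatives were a common median, quantile normalization, leaving out the dimmest 30% (6824 probe sets), low values raised to the 20th percentile (log2 3.51), the trend and robust options of eBayes, the replicate number as a block, the 4 compared arrays alone, a required 2-fold change, and each array left out, with the remaining array of its group taken to vary as arrays of other groups do. Deviations of same-numbered arrays correlated across probe sets at 0.441 between the dark and red groups. For the other pairs of groups the correlation ran from -0.325 to 0.13, so the numbers were not taken to pair the samples over all groups. Whether they pair the dark and red arrays alone was not tested. The main fit does not allow for spread shared by same-numbered dark and red arrays. No sequence is printed.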

Additional observations from a re-analysis of the deposited data

Results flagged for a closer look

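UGT74F1, a salicylate glucosyltransferase, was picked out because its arrays moved in opposite directions with red light on the 2 media without overlap. It had 4.32 and 4.29 in the dark group and 4.37 and 4.46 in the red group, against 4.49 and 4.49 in the dark lincomycin group and 4.39 and 4.35 in the red lincomycin group. The interaction of light and lincomycin was -0.23 and did not pass (limma adjusted p = 0.729).

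UGT71C2 was picked out because both dark lincomycin arrays lay above both dark arrays, while both red lincomycin arrays lay below both red arrays. Its changes with lincomycin were 0.65 ± 0.27 in darkness and -0.34 ± 0.27 after red light, or 0.29 without dark lincomycin replicate 2 and -0.16 without red lincomycin replicate 1. The interaction was -0.99 and did not pass (limma adjusted p = 0.442). Such opposite moves without overlap occurred for 2 of 44 members (4.55%) and for 2777 of 22746 probe sets (12.2%). Groups of 2 arrays are too small for a search for single outlying samples.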

How the results depend on the processing

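For lincomycin in darkness, the count of called members fell from 1 to 0 with the dimmest 30% left out, with the floor, with trend and robust, with the replicate block, with only the 4 arrays compared and with a 2-fold change required; fewer arrays or genes entered some of these, and otherwise the cause was not tested. It was 0 to 4 with single arrays left out, the 4 without dark replicate 2 being UGT72E1, UGT85A4, UGT80B1 and UGT74D1. It was 5 without dark and red replicates 1 together (UGT73D1, UGT85A7, UGT71C5, UGT76B1 and UGT85A4), a setting chosen after seeing the data. For red light without lincomycin the count of 0 became 1 in that setting (UGT85A2) and 0 to 2 with single arrays left out (UGT72E1 and UGT74D1 without dark replicate 2), and for the interaction 0 to 1 (UGT72E1 without dark replicate 2). For red light on lincomycin and for lincomycin after red light it was 0 under every setting run.

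The median change with red light without lincomycin went from 0.07 to 0.16 with a common median, 0.15 without dark and red replicates 1 together, and 0.01 to 0.15 with single arrays left out. For red light on lincomycin it ran from -0.05 to -0.02 with single arrays left out. With lincomycin in darkness it went from 0.13 to 0.21 with a common median and 0.25 with the dimmest left out (33 members), and 0.12 to 0.17 with single arrays left out. With lincomycin after red light it went from 0.03 to -0.08 without both replicates 1, and -0.08 to 0.11 with single arrays left out. The interaction median went from -0.13 to -0.25 with a common median, and -0.18 to -0.09 with single arrays left out. A common median moved the median of all probe sets by 0.09 for red light without lincomycin, 0.08 for lincomycin in darkness and -0.12 for the interaction, so relative to all probe sets the interaction median of the members did not move.

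UGT73B1 for lincomycin after red light reversed from 0.94 to -0.15 without red replicate 1, with a range of -0.15 to 2.04 over single arrays left out, and to -0.15 without both replicates 1. UGT76B1 for red light without lincomycin, -0.39, ran from -0.78 without dark replicate 1 to 0.0 without dark replicate 2. Its replicate 2 lay above replicate 1 by 0.79 in the dark group and by 0.74 in the red group. Leaving out 1 dark array alone therefore unbalances a replicate difference that both groups had. The interaction had 8 members above 0 without red replicate 1 and 20 without dark replicate 1, in place of 16. Without both of these arrays it had 17. The replicate block changed no other call of a member. Dim probe sets and 2 arrays per group limit what can be called: 26 of 44 members lay at or below the median signal of all probe sets.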

Other observations

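UGT genes that the rule did not admit were measured on other probe sets, and none was called in any comparison. A probe set shared by UGT73B2 and UGT73B3, 2 stress-responsive genes, had log2 intensities of 7.84 and 8.17 on the dark arrays, 6.73 and 8.24 on the red arrays, 8.11 and 7.68 on the dark lincomycin arrays and 8.13 and 8.0 on the red lincomycin arrays. Its lowest value lay on red replicate 1, as for UGT73B1, UGT73B4 and UGT73B5. A probe set shared by UGT71D1 and AT2G29710 had a change of -0.99 ± 0.28 with red light without lincomycin (limma adjusted p = 0.19), with both dark arrays, at 6.5 and 5.93, above the other 6.

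RefSeq synonyms name 4 further genes as UGTs. The sterol enzyme SGT (UGT80A2) had a change of 0.32 ± 0.22 for lincomycin in darkness (limma adjusted p = 0.5), where UGT80B1 had -0.71 ± 0.24. GT72B1 (UGT72B1), which acts on monolignols and xenobiotics, had 0.31 ± 0.39, UF3GT (UGT79B1), of anthocyanin synthesis, had 0.14 ± 0.19, and AT5G54010 (UGT79B6) had -0.12 ± 0.19, none of which passed.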
